A study of Mus musculus with 6 samples.

Results

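The Ly6 genes described here are Ly6a, Ly6c1, Ly6c2, Ly6e and Ly6i, 5 of the 32801 gene symbols in the deposited expression table. They were chosen by symbol. RNA sequencing was performed on thymic regulatory T cells (Treg), which hold other immune cells in check. NOD mice, which develop autoimmune diabetes spontaneously, gave 3 libraries, and C57BL/6 (B6) mice gave 3. All mice were 3 weeks old, and all cells were sorted as GFP-negative, CD4+CD8- and Thy1.1+. The labels do not say what GFP or Thy1.1 reports, name no transgene, and leave unsaid whether each library came from its own animals. The p-values thus set strain differences against the spread among these libraries, which may be technical. By its title, the series addresses how Treg arise in the thymus of young NOD mice, and its libraries compare Ly6 transcripts in these cells between the strains.

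Ly6 proteins are small surface proteins held in the outer membrane leaflet by a glycosylphosphatidylinositol (GPI) anchor, and they share a disulfide-rich fold with the urokinase receptor. Ly6a encodes Sca-1, a marker of haematopoietic stem cells that T cells also carry and that interferon induces. Ly6e encodes the antigen known as TSA-1 or Sca-2, found on thymocytes, and is likewise induced by interferon. Ly6c1 and Ly6c2 encode the forms of Ly6C, an antigen of inflammatory monocytes and of some T cells.

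Ly6a was higher and Ly6e and Ly6c2 were lower in NOD Treg, and the order of the 2 abundant genes was opposite in the strains. In NOD, Ly6a averaged 4986 ± 1166 normalized counts, against 1400 ± 127 for B6 (SD over n = 3 libraries), a fold of 3.5. Ly6e stood at 1880 ± 566 in NOD and 7082 ± 344 in B6, which is 3.89-fold lower in NOD. Ly6c2 was near 0 in NOD and low in B6. Ly6c1 and Ly6i, also at low levels, did not pass a test or could not be tested.

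The 5 genes lie on chromosome 15 within 156.9 kb (mm10, 74955051 to 75111970). Ly6e occupies 74955051 to 74959905 on the plus strand. Ly6i (74979534 to 74983430), Ly6a (74994877 to 74998031), Ly6c1 (75044018 to 75048830) and Ly6c2 (75108158 to 75111970) follow on the minus strand. All are annotated as protein-coding, and no other annotated gene overlaps any of them on either strand.

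The genes differ in how far their reads can be told apart. The coding sequences of Ly6c1 and Ly6c2 were 97.7% identical, with 9 differing bases in 396. Ly6a and Ly6i were 86.4% identical, while Ly6e shared 46% to 50% with any other member, aligned with gaps. The stretch with the most differences between Ly6c1 and Ly6c2 is shown because, within the coding sequence, only such bases separate the reads of the pair. It covers coding bases 1 to 90 of the reference transcripts (GENCODE M21, GRCm38), with the 6 differing bases in capitals.
Ly6c1: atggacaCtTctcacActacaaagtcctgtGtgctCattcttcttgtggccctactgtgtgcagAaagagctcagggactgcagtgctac
Ly6c2: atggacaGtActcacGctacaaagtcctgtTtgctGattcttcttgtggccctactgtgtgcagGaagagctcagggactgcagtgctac

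Reads were aligned to mm10, the genome of the B6 strain. Of the distinct 50-base windows in annotated coding transcripts, 32.8% of those of Ly6c1 and 31.2% of those of Ly6c2 also occurred in another gene, mostly in each other (379 and 252 windows). For Ly6a the share was 19%, mostly with Ly6c1 (195 windows), and for Ly6i 4.76%. For Ly6e it was 0% of 2829 windows. The values of Ly6c1 and Ly6c2 are therefore uncertain as separate genes, and Ly6e is the member whose reads the reference separates most fully.

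The promoters of the Ly6c pair are shown because Ly6c2 was lower in NOD, while its paralog Ly6c1 passed no test of a strain difference. They are the RefSeq reference sequences (GRCm38.p6) from 250 bases before to 50 bases after the more upstream start site of each gene, on the minus strand, at chr15:75048788-75049087 for Ly6c1 and chr15:75111922-75112221 for Ly6c2. Capitals mark matches to any of the motifs named below. Promoters of 2 of the 5 members were matched in the RefSeq table; those of Ly6a, Ly6e and Ly6i were not used here.
Ly6c1: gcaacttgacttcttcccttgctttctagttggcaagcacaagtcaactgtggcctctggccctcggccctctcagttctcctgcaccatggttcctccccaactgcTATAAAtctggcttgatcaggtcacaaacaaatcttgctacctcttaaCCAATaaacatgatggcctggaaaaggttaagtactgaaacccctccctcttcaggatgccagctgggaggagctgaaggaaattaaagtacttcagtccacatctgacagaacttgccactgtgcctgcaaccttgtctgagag
Ly6c2: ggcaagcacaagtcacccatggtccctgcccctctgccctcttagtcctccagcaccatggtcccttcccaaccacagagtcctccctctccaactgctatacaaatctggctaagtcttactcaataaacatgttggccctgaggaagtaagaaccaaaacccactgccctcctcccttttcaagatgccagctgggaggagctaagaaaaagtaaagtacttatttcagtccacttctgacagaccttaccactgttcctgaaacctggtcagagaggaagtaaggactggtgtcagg

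The promoters shown were 73.8% identical over 282 aligned bases. Both strands were searched for the core of the interferon-stimulated response element (ISRE), the STAT site TTCNNNGAA, the TATA box TATAAA and the CCAAT box CCAAT, and no matches of different motifs overlapped. Ly6c1 held a TATA box match starting at position -143 and a CCAAT box match starting at -95 from the start site, and Ly6c2 held no match to any of the 4. Among 32851 promoter windows of 300 bases in the table, 13.6% held TATAAA, 37.4% CCAAT, 3.44% the ISRE core and 8.3% TTCNNNGAA. A match is a run of letters in the B6 reference and shows no binding, and the NOD sequence was not analysed here.

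**Figure D1:**
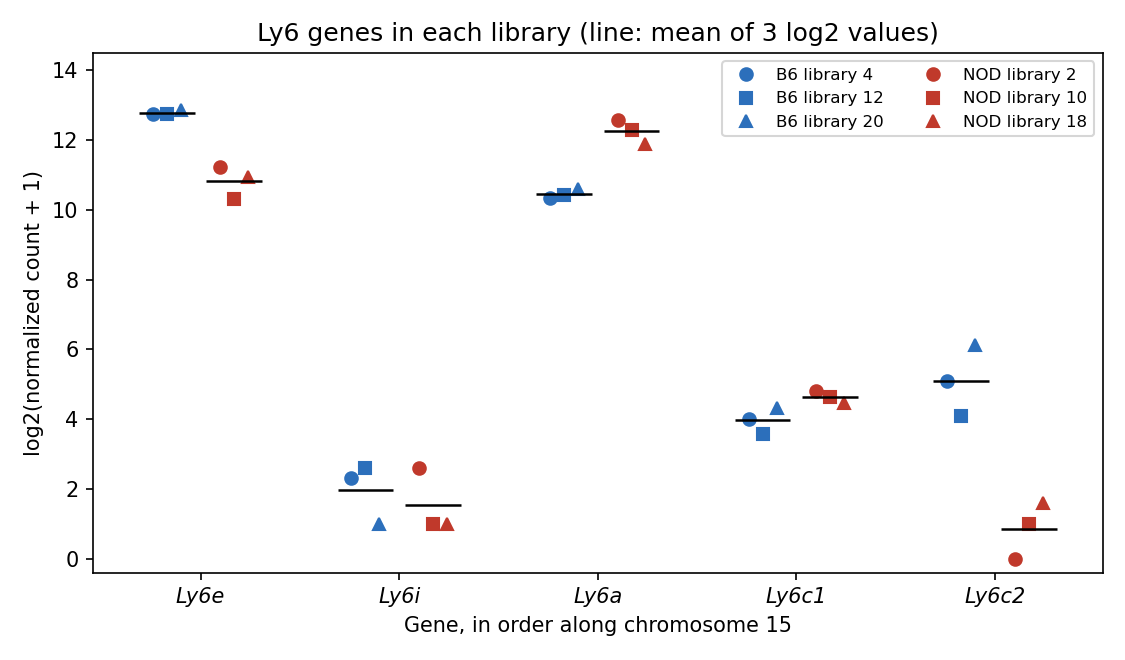
Normalized counts on a log2(value + 1) axis for the 5 Ly6 genes, ordered by position on chromosome 15. Each symbol is a library (blue B6, red NOD) and each line the mean of 3 log2 values; the strains separate for Ly6e, Ly6a, Ly6c1 and Ly6c2 and overlap for Ly6i, and Ly6c2 lies between 0 and 2 normalized counts in NOD.

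Normalized counts are the deposited values, taken here to be reads per gene scaled by library size factors and rounded to whole numbers. They sum to between 16097369 and 17625903 per library, and the depth estimated from the rounding ran from 15500000 to 21600000 reads. Strain differences were tested with limma across 16442 genes that reached 10 normalized counts in 3 or more libraries, and a gene was called at a Benjamini-Hochberg adjusted p below 0.05. Of these genes 9.89% were called, 4.59% as higher and 5.3% as lower in NOD, and the strains did not overlap for 24.1%. Foxp3, which specifies Treg, lay between 1701 and 2446 normalized counts in all 6 libraries, and Il2ra, the high-affinity IL-2 receptor chain, between 3763 and 5761. In bulk samples, fewer cells that express a gene and less RNA per cell cannot be told apart. NOD reads were aligned to the B6 genome, and whether sequence differences between the strains lowered NOD values was not tested.

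Ly6a, the gene of Sca-1, read 6135, 5021 and 3803 normalized counts in NOD libraries 2, 10 and 18, and 1291, 1371 and 1539 in B6 libraries 4, 12 and 20. The lowest NOD library stood above the highest B6 library, and the NOD libraries spread more widely than those of B6. The log2 fold change was 1.81 ± 0.16 (SE, limma adjusted p = 2.1e-05), with a 95% interval of 1.46 to 2.16. Its size exceeded that of 96% of tested genes. The call held whichever library was left out, with fold changes of 1.65 to 1.99 on the log2 scale and adjusted p values up to 0.00043.

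Ly6e, the gene of TSA-1, read 2398, 1275 and 1966 normalized counts in the NOD libraries, in the same order, and 6865, 6902 and 7479 in the B6 libraries. Every NOD library was lower than every B6 library, and NOD library 10 was the lowest of all. The log2 fold change was -1.96 ± 0.19 (SE, limma adjusted p = 4.1e-05), with a 95% interval of -2.37 to -1.55. It held with any library left out, at -2.16 to -1.70 and adjusted p values up to 0.00069. The library that was lowest for Ly6e in NOD was not the lowest for Ly6a, which was library 18.

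Because levels of different genes can be compared only per length, counts were divided by the length of the exons of each gene's coding transcripts. On that scale Ly6a stood at 4138 ± 968 normalized counts per kb in NOD, above 98.9% of tested genes, and at 1162 ± 105 in B6, above 95.1%. Ly6e stood at 749 ± 226 per kb in NOD (91.4%) and 2822 ± 137 in B6 (98.4%). Within a library, the level of Ly6a per kb was 5.33, 8.2 and 4.03 times that of Ly6e in NOD libraries 2, 10 and 18, and 0.392, 0.414 and 0.429 times in B6 libraries 4, 12 and 20. This ratio does not depend on the size factors, and its groups did not overlap.

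**Figure D2:**
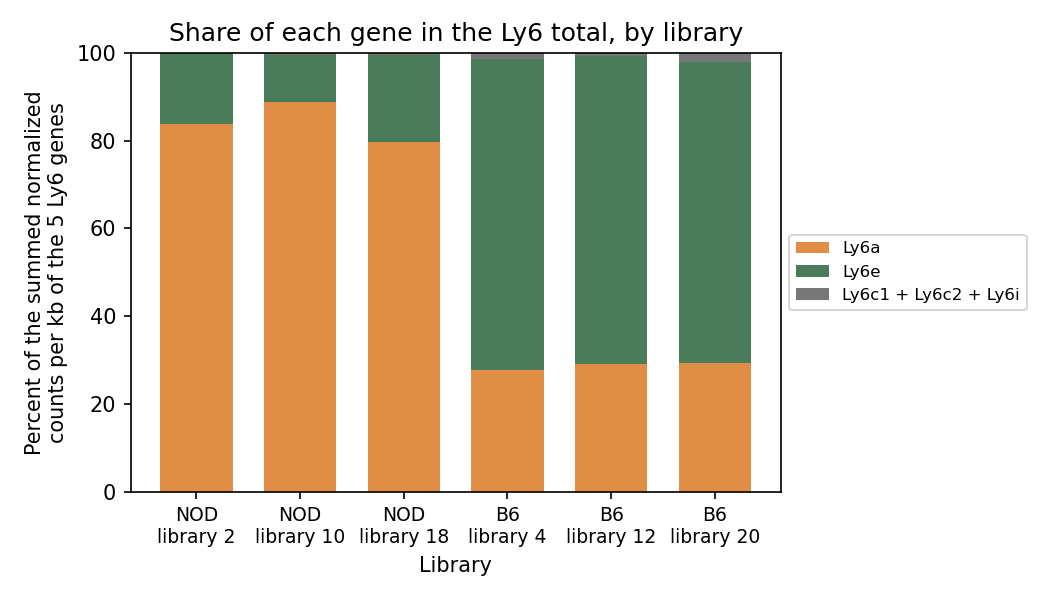
Share of each Ly6 gene in the summed normalized counts per kb of the 5 genes, in percent, 1 bar per library. Ly6a makes up 84.2% ± 4.52 (NOD) and 28.7% ± 0.841 (B6) of the sum, as mean ± SD of 3 libraries, Ly6e 15.5% ± 4.49 and 69.9% ± 1.23, and Ly6c1, Ly6c2 and Ly6i together 0.361% ± 0.0319 and 1.39% ± 0.684.

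Ly6c2 read 0, 1 and 2 normalized counts in NOD libraries 2, 10 and 18 and 33, 16 and 69 in B6 libraries 4, 12 and 20. The strains did not overlap, and the B6 libraries themselves varied widely. Over 3 libraries the values summed to 3 in NOD and 118 in B6, a ratio of 39.3 with a 95% counting interval of 13.1 to 193 (exact binomial, counting error only). The limma fit gave -4.24 ± 0.66 on the log2(value + 1) scale (adjusted p = 0.0014, 95% interval -5.68 to -2.80), and the call held with any library left out (adjusted p of 0.0027 to 0.014). Ly6c2 passed the filter on low values through the B6 libraries alone, so it could be tested only because it was higher there.

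Ly6c1 read 27, 24 and 21 normalized counts in NOD and 15, 11 and 19 in B6. The strains did not overlap, but by a margin of 2 normalized counts. The log2 fold change of 0.67 ± 0.37 (SE) did not pass the test (limma adjusted p = 0.37, 95% interval -0.15 to 1.49), and leaving out any 1 of the 6 libraries did not change that. Since reads may be shared, the sum of Ly6c1 and Ly6c2 was also taken. It was 27, 25 and 23 in NOD and 48, 27 and 88 in B6, so NOD library 2 equalled B6 library 12 and the pair as a whole did not separate the strains. Per kb, Ly6c1 (14.3 ± 1.79) lay above Ly6c2 (1.15 ± 1.15) in NOD, and Ly6c2 (45.3 ± 31.2) above Ly6c1 (8.94 ± 2.39) in B6.

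Ly6i read 5, 1 and 1 normalized counts in NOD and 4, 5 and 1 in B6, under the filter, and was not tested. Its groups overlapped, and its summed values of 7 and 10 gave a NOD to B6 ratio of 0.7 with a 95% counting interval of 0.226 to 2.04, so no difference was detectable at this depth. Ordered by level per kb, NOD libraries had Ly6a above Ly6e and Ly6e above Ly6c1, each without overlap, and then Ly6i (2.02 per kb) and Ly6c2, which overlapped. B6 libraries had Ly6e above Ly6a, then Ly6c2, Ly6c1 and Ly6i (2.88 per kb), each without overlap. Of the 5 members, 4 passed the filter, Ly6c2 through B6 alone. Of these, 1 was called higher and 2 lower, where 4.59% and 5.3% of all tested genes were; with so few members the counts are a description.

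The authors' deposited table compares the same strains. It gives Ly6a a log2 fold change of 1.83 (standard error 0.35, adjusted p = 5.11e-06) and Ly6e one of -1.91 (0.21, adjusted p = 3.24e-18). For Ly6c2 the authors' deposited table gives -5.40 (1.02, adjusted p = 4.78e-06), and for Ly6c1 and Ly6i adjusted p values of 0.668 and 0.895. The mean listed in the authors' deposited table is 2976 for Ly6a and 32.1 for Ly6c1, whereas the 6 columns average 3193 and 19.5, so that mean does not rest on these columns alone.

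**Figure D3:**
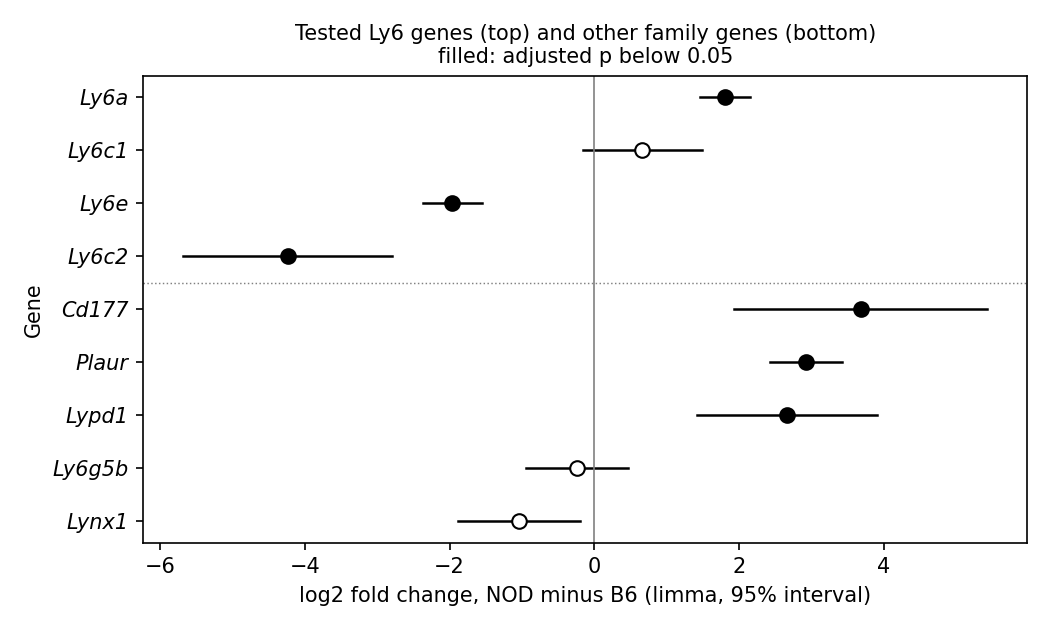
The log2 fold change (NOD minus B6) with its 95% limma interval for the 4 tested Ly6 genes (top) and the 5 tested other genes of the Ly6/uPAR family (bottom); filled points have an adjusted p below 0.05. Ly6a lies at 1.81 and Ly6e at -1.96, and the interval of Ly6c1 includes 0.

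Most other genes of the Ly6/uPAR family were at low levels: of 37 in the table, 5 passed the filter and 9 were at 0 in all 6 libraries. Plaur, the urokinase receptor on chromosome 7, was called higher in NOD, at 799, 1503 and 953 normalized counts against 114, 165 and 135 (log2 fold change 2.93 ± 0.22, limma adjusted p = 7.6e-06). NOD library 10 was highest for Plaur and lowest for Ly6e. Cd177, a surface protein of neutrophils (26, 34 and 17 against 7, 0 and 0, adjusted p = 0.012), and Lypd1 (19, 26 and 19 against 6, 1 and 2, adjusted p = 0.011) were also called higher, at low levels. Both passed the filter through the NOD libraries alone. Cd177 was no longer called when NOD library 2 (limma adjusted p = 0.052) or B6 library 12 (0.051) was left out, nor Lypd1 when NOD library 18 was (0.052). In a fit without the mean-variance trend of limma, Cd177 also lost its call (limma adjusted p = 0.058), while Lypd1 kept it (0.022). Lynx1, a modulator of nicotinic receptors (12 ± 1 against 26.3 ± 7.23, adjusted p = 0.14), and Ly6g5b, which lies on chromosome 17 (adjusted p = 0.78), did not pass the test.

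Around the cluster, 26 genes within 1 Mb other than the members were tested, and 3 were called (11.5%, against 9.89% of all tested genes). The nearest was Gm39556, a long non-coding RNA gene on the plus strand (74929437 to 74936316) that ends 18.7 kb before Ly6e starts. It read 0 in all 3 NOD libraries and 166, 177 and 147 normalized counts in B6, at least 163-fold lower in NOD against a floor of 3 counts over the group. Gm39556 was called lower by limma (adjusted p = 5.4e-07), but it passed the filter through the B6 libraries alone, so it could be tested only because it was high there. Arc, a neuronal immediate early gene 282 kb before Ly6e, was lower in NOD (137 ± 36.7 against 294 ± 83.5, limma adjusted p = 0.02). Leaving out NOD library 2 or 18, or B6 library 4 or 12, ended that call (limma adjusted p from 0.07 to 0.11). A fit without the mean-variance trend ended it too (limma adjusted p = 0.1). Gm15387, a processed pseudogene 861 kb away, was higher (237, 101 and 219 against 20, 17 and 16). The median log2 fold change of the neighbours was 0.00, and that of all tested genes 0.01. Among neighbours that were not called, Gsdmd, the gene of the pore-forming protein gasdermin D, lay between 1053 and 1386 in NOD and 1045 and 1107 in B6.

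**Figure D4:**
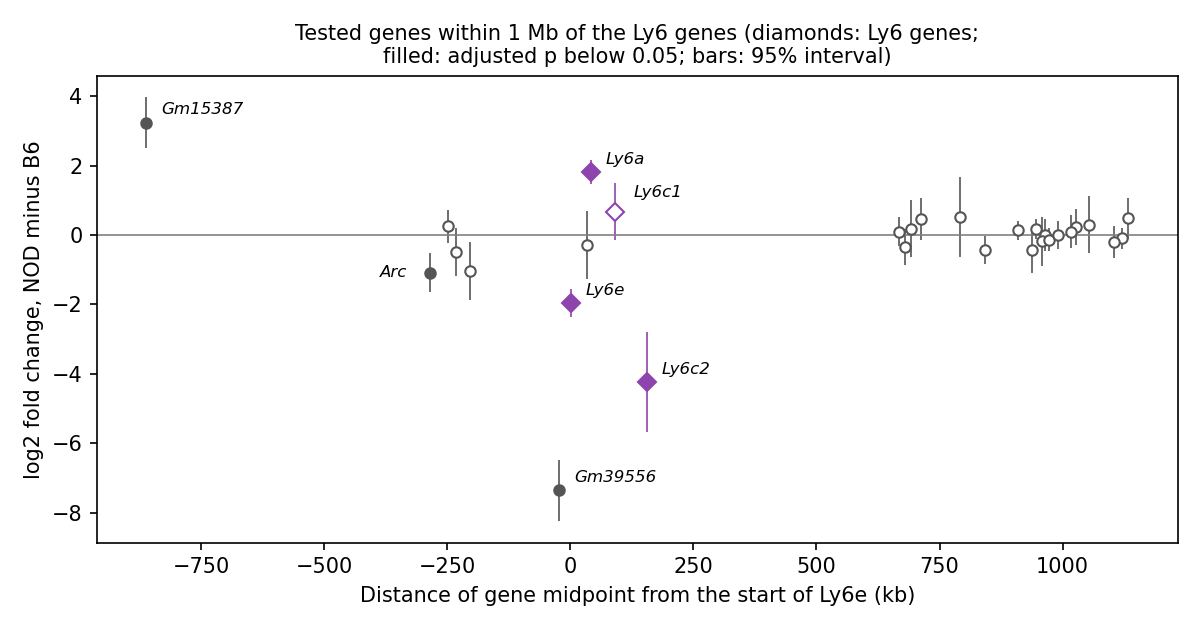
The log2 fold change (NOD minus B6) of tested genes against the distance of the gene midpoint from the start of Ly6e in kb, with 95% limma intervals. Diamonds are the 4 tested Ly6 genes, circles the 26 tested neighbours, and filled symbols have an adjusted p below 0.05; Ly6a lies above 0 and Gm39556, Ly6e and Ly6c2 below it.

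Of 33 tested genes that build and transfer the GPI anchor, 1 was called higher and 2 lower in NOD. This share of 9.09% was near the 9.89% of all tested genes, and the median log2 fold change was 0.06, against 0.01 over all. Pgap2, which remodels the lipid of the anchor, read 179, 163 and 184 in NOD and 332, 306 and 351 in B6 (log2 fold change -0.91 ± 0.15, limma adjusted p = 0.0021). Pigo (0.56 ± 0.15, adjusted p = 0.033) and Pign (-0.63 ± 0.15, adjusted p = 0.023), ethanolamine phosphate transferases of anchor synthesis, were called in opposite directions. The list held 0 higher and 1 lower gene without NOD library 2, without any single B6 library or without the mean-variance trend. Without NOD library 10 it held 0 higher and 3 lower. Calls over all tested genes moved too, from 755 higher and 871 lower in the main fit. They were 545 and 688 without NOD library 2, 763 and 1011 without NOD library 10, and 528 and 638 without the trend. Without a B6 library they ran from 536 to 781 higher and from 569 to 778 lower.

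Other genes induced by type I interferon, the class to which Ly6a and Ly6e belong, were called in both directions. Of 52 tested, 7 were called higher and 3 lower in NOD, 19.2% against 9.89% of all tested genes, and the median log2 fold change was 0.07, against 0.01 over all. Slfn8 (log2 fold change 2.83 ± 0.22) and the dynamin-like GTPase gene Mx2 (1.65 ± 0.24) were higher, as Ly6a was. Eif2ak2, the gene of the kinase PKR (-1.23 ± 0.14), and Ifih1, the gene of the RNA sensor MDA5 (-0.56 ± 0.11, limma adjusted p = 0.0073), were lower, as Ly6e was. Leaving out NOD library 2 or B6 library 4 brought the counts to 4 higher and 2 lower, a fit without the mean-variance trend gave 3 and 3, and array weights gave 11 and 4. Calls over all tested genes moved in the same fits. They were 545 higher and 688 lower of 17054 without NOD library 2, and 536 and 569 of 17006 without B6 library 4. Of 16442 genes, they were 528 and 638 without the trend and 1247 and 1434 with array weights, against 755 and 871 in the main fit. The summed normalized counts of the interferon-induced genes ran from 74245 to 82088 in NOD and from 64203 to 72147 in B6. The part of interferon in the Ly6 values was not tested.

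Genes with the most similar pattern over the 6 libraries were ranked by the root mean square distance between centred log2 values, among genes with a mean above the median. For Ly6a they were 1600014C10Rik (distance 0.203), Zfp773 (0.235) and Ehd3, an endosomal ATPase gene (0.243). For Ly6e they were Lyn, a Src-family kinase gene (0.160), Trim34a (0.167) and Trim12c (0.206). Lyn read 162, 113 and 128 normalized counts in NOD and 467, 465 and 479 in B6. Its lowest library, NOD library 10, was also the lowest for Ly6e, but the ranking used these same values, so this is no separate support. The distance includes the strain difference, so genes with a similar strain difference rank near. For Ly6c2 the nearest were Gvin1 (0.725), Arhgap31 (0.741) and Hopx (0.830), at larger distances, and for Ly6c1 Rasgef1a (0.119), Zfp65 (0.122) and Crebl2 (0.123).

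Markers of other cells were read in the same libraries, since monocytes and other myeloid cells also carry Ly6C. Of 12 monocyte and macrophage markers, 5 were tested and 0 were called by limma (2 at an unadjusted p below 0.05). Their sum ran from 4573 to 6858 normalized counts in NOD and from 2813 to 4274 in B6, and most of it was Ccr2, which T cells also express. Without Ccr2, a choice made after the values were seen, it ran from 102 to 145 in NOD and from 171 to 199 in B6. Lyz2, the lysozyme gene of monocytes and macrophages, read 3, 3 and 15 in NOD and 38, 13 and 33 in B6 (limma adjusted p = 0.068). The strains overlapped for Lyz2, and also for Cd14 and Cd68 of that list. Cd14, the endotoxin co-receptor gene, read 2, 19 and 13 in NOD and 7, 15 and 2 in B6. Cd68, a lysosomal protein gene of macrophages, read 66, 91 and 80 in NOD and 93, 102 and 74 in B6. The log2 fold changes were 0.38 for Cd14 and -0.18 for Cd68, against -2.06 for Lyz2. The 8 neutrophil markers summed to 42 to 78 in NOD and 106 to 134 in B6. Limma called 0 of the 2 tested (1 at an unadjusted p below 0.05). The 9 dendritic cell markers summed to 1333 to 1772 in NOD and 1845 to 1995 in B6. Most of that sum was Zbtb46 (852 ± 127 in NOD, 1190 ± 96.4 in B6) and Bst2 (646 ± 144 and 623 ± 42.8). Among 3 tested, Zbtb46 was lower in NOD (limma adjusted p = 0.041), while Bst2 (0.95) and Xcr1 (0.59) were not called. None of the markers in these 3 lists was at 0 in all 6 libraries, but Adgre1, the gene of the macrophage antigen F4/80, read 0, 0 and 2 in NOD and 9, 9 and 22 in B6. Ly6g, the neutrophil member of the family, read 2, 4 and 2 in NOD and 0 in every B6 library. Among the other neutrophil markers, Ltf (50, 26 and 16 in NOD, 65, 60 and 61 in B6) was lower in NOD without overlap. So was Mpo (2, 2 and 0 in NOD, 17, 21 and 5 in B6), and for the remaining neutrophil markers the strains overlapped. The part of these cells in the Ly6c2 values was not tested. Cd8a, which the sort should exclude, was higher in NOD (124, 35 and 100 against 10, 17 and 18, adjusted p = 0.0075), while Cd8b1, the gene of the other CD8 chain, was not called. The summed CD8 markers ran from 170 to 241 in NOD and from 115 to 149 in B6. Of 3 B cell, 2 NK cell and 4 epithelial, endothelial and stromal markers tested, 0 were called by limma, and in each of these lists 1 had an unadjusted p below 0.05. Eomes of the NK list fell just short (76, 21 and 59 in NOD, 17, 16 and 6 in B6, limma adjusted p = 0.05), and Nkg7 overlapped. With a pseudocount of 5, with array weights or without NOD library 10, the NK list held 1 gene called higher. Array weights also gave 1 lower B cell marker, and 1 higher and 1 lower in the third list. Of the 5 erythroid markers 0 could be tested. Of 7 Treg genes tested, 1, the T cell receptor complex gene Cd3e, was called higher and 0 lower. Over all tested genes 9.89% were called, so with at most 7 tested per list these counts are a description. Thy1, the gene of another GPI-anchored surface protein of T cells, was higher in NOD (log2 fold change 1.07, limma adjusted p = 6.2e-05). Because Thy1.1 served as a marker in the sort and its source is not stated, Thy1 is no independent T cell gene here. Whether the marker contributed to the Thy1 values was not tested. The part of the other cell types in the Ly6a and Ly6e values was not tested.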

How the data were processed

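RNA was measured in thymic Treg of NOD and B6 mice (3 libraries each). Per the labels' protocols, libraries came from total RNA by the TruSeq Standard Total RNA LT protocol. Per the submitters' processing notes, Trimmomatic, STAR, DESeq2 and the mm10 build were used; the sources used here give no version, counter, annotation or strand setting. The deposited sample columns are scores, namely counts divided by size factors and rounded, per the file headers. The authors' comparison was deposited with log2 fold changes, p-values and adjusted p-values.

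Columns were matched to strain by name; 0 sample columns went unused. Their library numbers are not the labels' replicate numbers. Whole reads could not be recovered, so no count test was run. Strains were compared by limma 3.58.1 (R 4.3.3) on log2(value + 1) with trend, strain as the only term, two-sided, with Benjamini-Hochberg adjustment over 16442 genes reaching 10 in 3 or more libraries (2 in leave-one-out fits). Fold changes on this scale understate those of low genes. The code was tested on simulated data. Exon lengths and coordinates come from GENCODE M21 (GRCm38), which matched 98.7% of symbols. The members, lists and tests were chosen with earlier results of these data known. The rule for named genes took the members, the tested family genes, up to 4 called genes each way per list or neighbourhood, the 3 most similar genes per member and the Treg identity genes; fewer are printed, and Gsdmd, the named markers of other cells and the genes of the closing section were named after their values were seen. Alternatives were pseudocounts of 0.5 and 5, no filter or a minimum of 50, TMM or median-of-ratios rescaling, no trend, array weights and leaving out each library.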

Additional observations from a re-analysis of the deposited data

How the results depend on the processing

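Across 14 alternative fits, Ly6a and Ly6e kept their direction and their call, with log2 fold changes of 1.65 to 1.99 and -2.16 to -1.70. Ly6c2 kept both in the 13 fits that tested it (-4.77 to -2.71), and Ly6c1 stayed positive (0.48 to 0.84) and uncalled in 13; neither passes a minimum of 50 normalized counts. Ly6i entered only the fit without a filter (-0.44, adjusted p = 0.8). Summing Ly6c1 and Ly6c2 gave -0.94 on the log2 scale, opposite in sign to Ly6c1 alone and much smaller than Ly6c2 alone, because the sum holds both. An exact permutation test on the same log2 differences (1.81 for Ly6a, -1.96 for Ly6e, -4.24 for Ly6c2) gave p = 0.1 for each, the smallest that 3 against 3 libraries allow. The number of genes called was 755 higher and 871 lower; with array weights it was 1247 and 1434, and with a library left out it ran from 490 (without NOD library 18) to 781 higher and from 569 (without B6 library 4) to 1011 lower. The cause was not tested. No paired analysis was possible because the columns carry no replicate numbers of the labels. Among other named genes the sign changed for Foxp3 alone, whose fold changes with a library left out ran from -0.13 to 0.10 (0.09 without NOD library 10 and 0.10 without B6 library 4); 43 of their other values lost the call and 3 gained it. Counts near 0 limit what can be said of Ly6c2, Ly6c1 and Ly6i.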

Other observations

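Further genes near Ly6e were too low to be tested. The Ly6-family gene listed as 2010109I03Rik, for which RefSeq uses the symbol Ly6m, lies 58 kb before Ly6e and read 0, 0 and 1 normalized counts in NOD libraries 2, 10 and 18 and 8, 7 and 8 in B6 libraries 4, 12 and 20. The summed values of 1 and 23 gave a B6 to NOD ratio of 23, with a 95% counting interval of 3.73 to 947. The processed pseudogene Gm6610, 29.8 kb before Ly6e, read 0 in every NOD library and 12, 18 and 0 in B6. Ly6d, an antigen of early lymphoid cells 191 kb before Ly6e, read 6, 0 and 3 in NOD and 20, 4 and 19 in B6, and the strains overlapped. Beyond Ly6c2, I830127L07Rik lay at 0 to 3 in all 6 libraries. Ly6k read 4, 10 and 5 in NOD and 9, 1 and 6 in B6. Cd59a and Cd59b, whose proteins guard cells against complement, stayed at 12 normalized counts or fewer.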
